A study of Oryza sativa with 12 samples.

Results

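Expression of 5 stress-responsive NAC transcription factor loci was examined in germinating rice seed, as 5 of the 35204 gene IDs with a value in each library. They were chosen by locus ID: Os03g0815100 (SNAC1, chromosome 3), Os01g0884300 (NAC6/SNAC2, chromosome 1), and Os11g0184900 (NAC5), Os11g0126900 (NAC10) and Os11g0127600 (ONAC045), all 3 on chromosome 11. The names are those in published use for these IDs, since the files carry IDs only. The choice of loci was made with earlier results of these data known. RNA-seq of total RNA from whole seed covered 4 groups of 3 libraries, 12 in all. The groups were Zhonghua 11 (the wild type, WT) in water, WT in 300 mM NaCl, a knockout of OsMFT1 (osmft1) in water, and osmft1 in 300 mM NaCl. OsMFT1 belongs to the MOTHER OF FT AND TFL1 family, known for its part in seed germination. The labels name no allele of the knockout and no time of sampling. An effect of salt or of genotype therefore cannot be told apart from a difference in the stage of germination reached. The labels do not give the origin of the replicates, and p-values measure only the spread between libraries, part of which may be technical. In whole seed, fewer cells of a type and less RNA per cell cannot be told apart.

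NAC proteins are plant-specific transcription factors with a conserved DNA-binding NAC domain at the N-terminal end and a variable activation domain behind it. The stress-responsive members are known to be switched on by drought, salt and abscisic acid, the hormone that also holds back germination, and to bind promoters of stress genes. Overexpression of SNAC1, NAC6/SNAC2 or NAC5 in rice is known to raise tolerance of drought or salt.

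Levels are the deposited values, treated as FPKM (reads or fragments counted, scaled by gene length and by library total). Genes of different length can then be compared, although the unit is not stated. Whole reads recovered from the values gave library totals of 14379728 to 15688593 reads. The limma test on log2(FPKM + 1) took the 22017 IDs with 1 FPKM or more in 3 or more libraries, and a call means an adjusted p under 0.05. Of the 5 NAC loci 4 were tested, and NAC10 fell under the limit. Os06g0498800, taken as the locus of OsMFT1, had 1 to 8 reads in each library of both genotypes and so gives no check of the genotype labels. Over all tested IDs, osmft1 salt replicate 1 had the lowest first principal component score of the salt libraries, at 39.2. The rest of the salt libraries scored 57.5 to 87.4 and the water libraries -85.4 to -49.7. The osmft1 salt scores (39.2 to 63.7) spread no more widely than those of WT water (-85.4 to -59.2). Without osmft1 salt replicate 1, SNAC1, NAC6/SNAC2 and NAC5 rose with salt in osmft1 by 1.20, 2.17 and 0.46 on the log2 scale (limma, adjusted p = 0.00918, 6.29e-05 and 0.0137). The number of NAC loci called then stayed the same in all 5 comparisons.

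The loci differed widely in level. SNAC1 stood among the most abundant IDs of the seed: in WT in salt 163 tested IDs (0.74%) had a higher mean, and in WT in water 558 (2.53%). NAC6/SNAC2 had 1024 tested IDs (4.65%) above it in WT in salt and 3355 (15.2%) in WT in water. NAC5 lay in the upper 24% of tested IDs in WT in salt. ONAC045 stayed below the middle of the tested IDs in all 4 groups, with 57.9% to 69.7% of them higher. SNAC1 alone made up 66.9% to 86.6% of the summed FPKM of the 5 loci in every library.

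**Figure D1:**
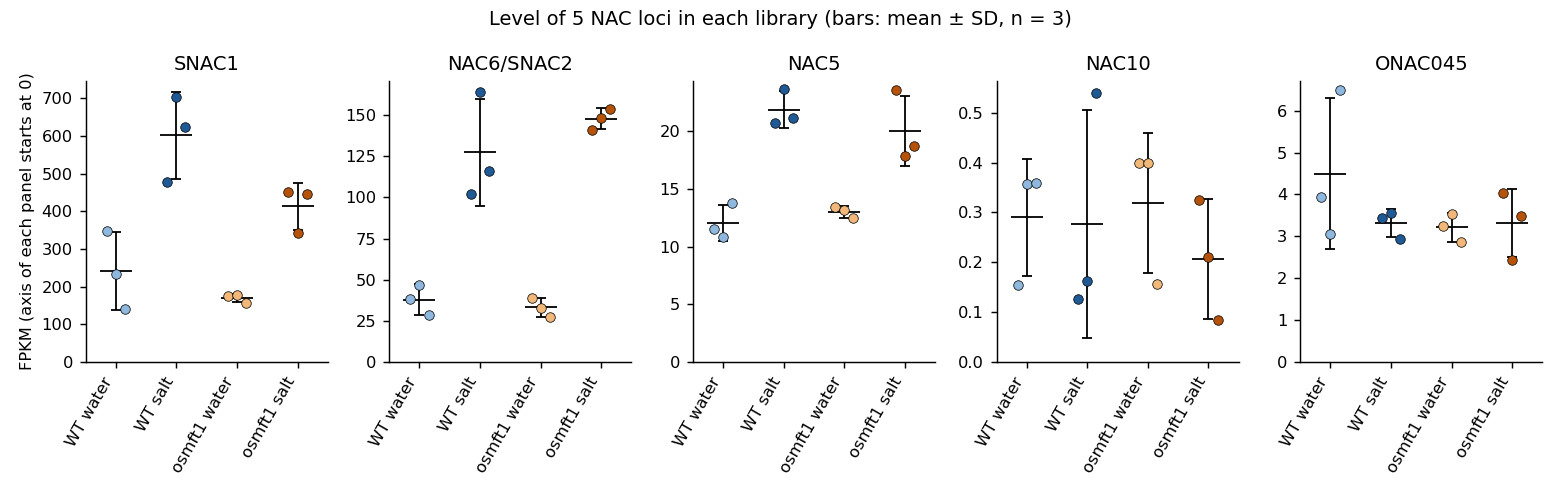
FPKM of each NAC locus in the 12 libraries. Points are libraries, horizontal lines the group means and bars the SD (n = 3), and each panel has its own axis from 0. SNAC1, NAC6/SNAC2 and NAC5 are higher in every salt library than in any water library of the same genotype, while NAC10 (0.0837 to 0.539 FPKM) and ONAC045 (2.44 to 6.51 FPKM) overlap among all groups.

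The comparison of salt with water asked how seed in 300 mM NaCl differed from seed in water, in each genotype. SNAC1, NAC6/SNAC2 and NAC5 rose with salt in WT and in osmft1. ONAC045 did not pass the test in either genotype, and NAC10 was near the lower limit of detection throughout. Among all 22017 tested IDs, 27.7% were called higher in salt in WT and 20.5% in osmft1, against 3 of the 4 NAC loci tested, or of 5 in all. Since the loci were chosen with earlier results of these data known, this contrast is a description. The libraries of salt and water did not overlap at these 3 loci in either genotype, as at 63.8% of all tested IDs in WT and 54.4% in osmft1. None of these 4 tested loci was called lower, where 28.2% and 25.5% of all tested IDs were. The median log2 difference over the 5 loci, including NAC10, was 0.82 in WT and 0.58 in osmft1, and over all tested IDs it was 0.04 and -0.11.

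SNAC1, known in rice for its activity in guard cells under drought, stood at 347, 234 and 141 FPKM in the WT water libraries and at 477, 704 and 624 FPKM in the WT salt libraries. All WT salt libraries lay above all WT water libraries, although the water libraries themselves differed widely. The mean went from 241 ± 103 to 602 ± 115 FPKM (SD, n = 3), a ratio of 2.5, and log2(FPKM + 1) rose by 1.39 ± 0.26 (SE; limma, adjusted p = 0.000847). In osmft1 SNAC1 stood at 176, 176 and 156 FPKM in water and at 451, 342 and 447 FPKM in salt. The groups did not overlap here either, and the water libraries were close together. The osmft1 mean went from 169 ± 11.7 to 413 ± 61.7 FPKM (SD, n = 3), a ratio of 2.44, and log2(FPKM + 1) rose by 1.27 ± 0.26 (SE; limma, adjusted p = 0.00226).

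NAC6/SNAC2, a factor known to be induced by abscisic acid, cold, drought and salt, had the largest salt response of the 5 loci in both genotypes. Its WT water libraries held 38.3, 46.8 and 28.4 FPKM and its WT salt libraries 102, 164 and 116 FPKM. Every salt library held more than the highest water library, and the rise was from 37.9 ± 9.23 to 127 ± 32.5 FPKM (SD, n = 3), or by 1.72 ± 0.20 on the log2 scale (SE; limma, adjusted p = 2.71e-05). In osmft1 it stood at 39.1, 32.6 and 27.5 FPKM in water and at 141, 148 and 154 FPKM in salt. The salt libraries were close together, far above those in water. The osmft1 mean went from 33.1 ± 5.78 to 148 ± 6.42 FPKM (SD, n = 3), a ratio of 4.47 against 3.37 in WT, and the log2 difference was 2.14 ± 0.20 (SE; limma, adjusted p = 1.32e-05). A larger salt difference was found at 792 tested IDs (3.6%) in WT and at 366 (1.66%) in osmft1.

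NAC5, known to be induced by abscisic acid and salt and to bind the promoter of a late embryogenesis abundant gene, rose less. It stood at 11.5, 10.8 and 13.8 FPKM in WT in water and at 20.7, 23.7 and 21.1 FPKM in WT in salt. The groups did not overlap, and the log2 difference was 0.82 ± 0.13 (SE; limma, adjusted p = 0.00021), a ratio of 1.82 between means of 21.9 ± 1.6 and 12 ± 1.55 FPKM (SD, n = 3). In osmft1 it stood at 13.5, 13.1 and 12.4 FPKM in water and at 23.5, 17.9 and 18.8 FPKM in salt. Its osmft1 salt libraries again lay above all water libraries, and the log2 difference was 0.58 ± 0.13 (SE; limma, adjusted p = 0.00314) between means of 20.1 ± 3.04 and 13 ± 0.52 FPKM (SD, n = 3). On the same log2 scale, the rise of NAC5 was smaller than that of 55.9% of the IDs called higher in WT and of 76.9% of those called higher in osmft1.

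**Figure D2:**
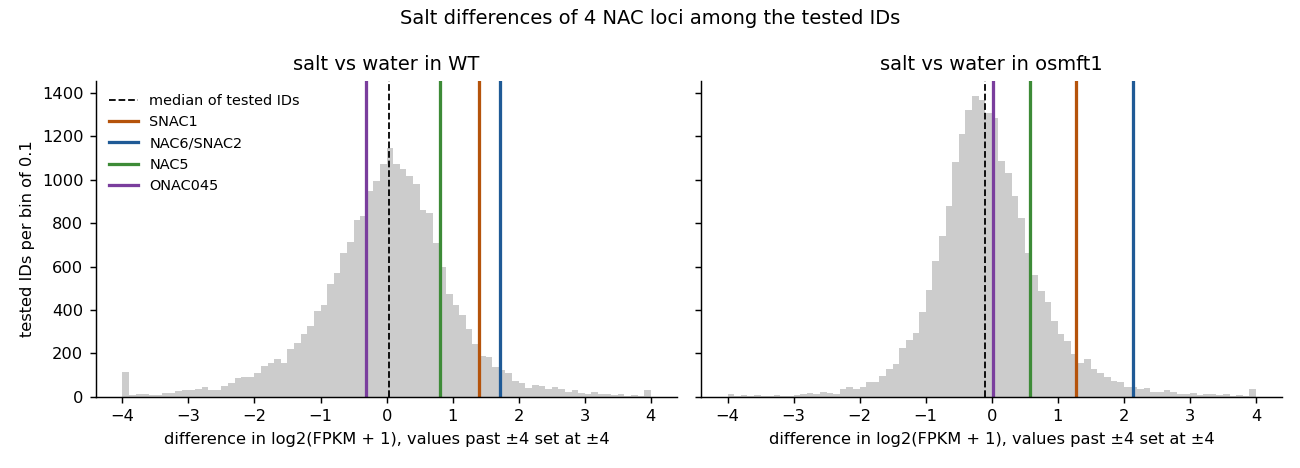
Salt differences of the 4 tested NAC loci (coloured lines) among all 22017 tested IDs (grey, in bins of 0.1 of the log2 difference), in WT (left) and osmft1 (right). The dashed line is the median of the tested IDs, at 0.04 in WT and -0.11 in osmft1, and SNAC1 and NAC6/SNAC2 lie in the right tail of both panels.

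ONAC045, a factor known to be induced by drought, cold and salt in rice leaves and roots, was not called with salt. It stood at 3.94, 3.05 and 6.51 FPKM in WT in water and at 3.44, 3.56 and 2.93 FPKM in WT in salt, with 55 to 155 reads per library over all groups. The highest value came from WT water replicate 3, and the groups overlapped. The log2 difference was -0.31 ± 0.22 (SE; limma, adjusted p = 0.257), with a 95% interval from -0.79 to 0.17. In osmft1 the means were 3.21 ± 0.34 FPKM in water and 3.32 ± 0.81 FPKM in salt (SD, n = 3), which differed by 0.02 ± 0.22 on the log2 scale (SE; limma, adjusted p = 0.947; 95% interval -0.46 to 0.50). The estimated rises of SNAC1, NAC6/SNAC2 and NAC5 in the same genotype lie above these intervals. In osmft1, however, the 95% interval of NAC5 (0.30 to 0.86) overlaps that of ONAC045. A difference in response between loci was not tested.

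NAC10, which is known for enlarging roots when it is overexpressed in rice roots, had only 2 to 13 reads in a library, or at most 0.539 FPKM. Its reads summed to 22 in WT in water, 20 in WT in salt, 24 in osmft1 in water and 15 in osmft1 in salt. The read ratio of salt to water was 0.955 in WT (exact 95% binomial interval 0.494 to 1.83) and 0.654 in osmft1 (0.319 to 1.3). These intervals cover counting error only. No difference between salt and water was detected at this depth, and exact permutation tests of FPKM (two-sided) gave p = 0.9 in WT and p = 0.3 in osmft1. With 3 libraries against 3, the smallest p this test can give is 0.1. NAC10 and ONAC045 lie near the end of chromosome 11 in a segment known to have a highly similar copy on chromosome 12. Reads of such copies may have been split or dropped, so both levels are uncertain. Of the other NAC loci set beside them below, Os12g0123700 and Os12g0123800 have the closest ID numbers on chromosome 12. Os12g0123800 had a mean of 1.1 FPKM in WT water, 3.37 in WT salt, 1.22 in osmft1 water and 2.18 in osmft1 salt. Os12g0123700 had at most 0.388 FPKM in a library. Whether they are the copies, and share reads with ONAC045 or NAC10, was not tested.

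The comparison of osmft1 with WT asked whether loss of OsMFT1 altered these loci, in water and in salt. None of the 4 tested NAC loci was called in water, where 30.4% of all tested IDs were, and none in salt, where 5.45% were (limma, adjusted p). At an unadjusted p under 0.05 the count was also 0 of 4 in both treatments, beside 9500 of all 22017 tested IDs in water and 4499 in salt. The lowest was that of SNAC1 in salt (limma, unadjusted p = 0.066), in a fit that pools the spread of all 4 groups. The other method run, voom on the recovered reads, called 0 as well, beside 7041 IDs in water and 1141 in salt. The comparisons within WT and between the genotypes share WT libraries, so their values for a locus are not independent.

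The largest genotype difference in salt among the 5 loci was that of SNAC1. All osmft1 salt libraries (342 to 451 FPKM) lay below all WT salt libraries (477 to 704 FPKM), and 25.1% of all tested IDs likewise did not overlap between these groups. The log2 difference was -0.53 ± 0.26 (SE; limma, adjusted p = 0.283), with a 95% interval from -1.11 to 0.04, and it was not called. This fit pools the spread over all 4 groups, and with only the salt libraries the SE was 0.18 and the difference was still not called (limma, adjusted p = 0.182). In water the osmft1 libraries (156 to 176 FPKM) lay within the range of the WT libraries (141 to 347 FPKM), and differed by -0.41 ± 0.26 on the log2 scale (SE; limma, adjusted p = 0.249; 95% interval -0.99 to 0.16). That value rested on single WT water libraries. Without WT water replicate 3, the lowest, it was -0.75 ± 0.20 (SE; limma, adjusted p = 0.0322), and without replicate 1, the highest, it was -0.10 (limma, adjusted p = 0.749).

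NAC6/SNAC2 had a log2 difference between osmft1 and WT of -0.18 in water (95% interval -0.62 to 0.27; limma, adjusted p = 0.536) and of 0.24 in salt (95% interval -0.20 to 0.68; limma, adjusted p = 0.569). The corresponding values for NAC5 were 0.11 (95% interval -0.17 to 0.39; limma, adjusted p = 0.528) and -0.13 (95% interval -0.40 to 0.15; limma, adjusted p = 0.651). For ONAC045 they were -0.34 (95% interval -0.82 to 0.14; limma, adjusted p = 0.257) and -0.01 (95% interval -0.49 to 0.47; limma, adjusted p = 0.991). NAC5 had the narrowest of these intervals and SNAC1 the widest. For NAC10 the read ratio of osmft1 to WT was 1.1 in water (exact 95% binomial interval 0.592 to 2.06) and 0.754 in salt (0.359 to 1.55).

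**Figure D3:**
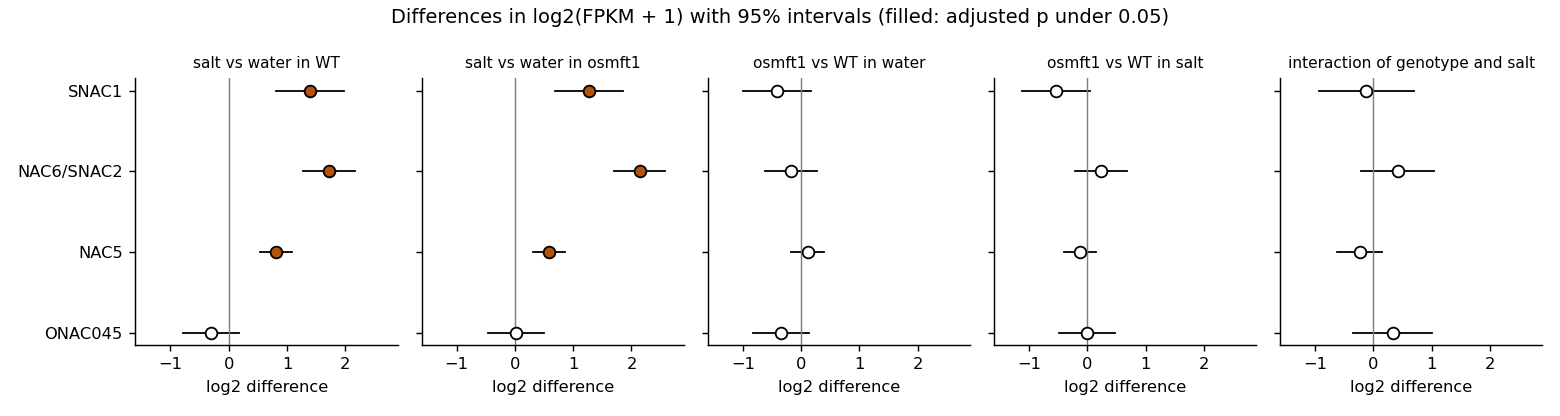
Differences in log2(FPKM + 1) of the 4 tested NAC loci in the 4 pairwise comparisons and the interaction. Points are limma estimates, lines their 95% intervals, and filled points passed an adjusted p under 0.05. SNAC1, NAC6/SNAC2 and NAC5 are filled in both salt comparisons, and no locus is filled between the genotypes.

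The interaction asked whether WT and osmft1 differed in their responses to salt. It was called at 13% of all tested IDs and at 0 of the 4 NAC loci (limma). At an unadjusted p under 0.05 the count was 0 of 4, beside 7390 of all 22017 tested IDs. With voom on the recovered reads it was 0, beside 3417 IDs. Its value was largest at NAC6/SNAC2, at 0.42 ± 0.29 (SE; limma, adjusted p = 0.326; 95% interval -0.21 to 1.04). It was -0.12 ± 0.37 at SNAC1 (SE; limma, adjusted p = 0.845), with the widest interval, from -0.94 to 0.70. At NAC5 it was -0.24 ± 0.18 (SE; limma, adjusted p = 0.371; 95% interval -0.63 to 0.15) and at ONAC045 0.33 ± 0.31 (SE; limma, adjusted p = 0.483; 95% interval -0.35 to 1.01). Every interval held 0, and none was narrow enough to show equal responses in both genotypes.

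In order of mean level SNAC1 ran from WT in salt through osmft1 in salt and WT in water to osmft1 in water. The first of these groups did not overlap its neighbour, whereas the highest WT water library (347 FPKM) exceeded the lowest osmft1 salt library (342 FPKM), and both water groups overlapped. For NAC6/SNAC2 the order was osmft1 in salt, WT in salt, WT in water and osmft1 in water, and for NAC5 it was WT in salt, osmft1 in salt, osmft1 in water and WT in water. At both loci the neighbours of 1 treatment overlapped and the step from salt to water did not. For ONAC045 and NAC10 all neighbouring groups overlapped.

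Over the 12 libraries the log2(FPKM + 1) values of SNAC1 and NAC6/SNAC2 had a Pearson r of 0.88, those of NAC6/SNAC2 and NAC5 one of 0.88, and those of SNAC1 and NAC5 one of 0.80. These values describe libraries that share the split between salt and water. Taken as deviations from each group's mean, SNAC1 and NAC6/SNAC2 had an r of 0.61, while NAC5 had -0.12 with SNAC1 and -0.13 with NAC6/SNAC2. NAC5 and ONAC045 had an r of 0.84 in these deviations, although their r over the plain values was -0.07. WT water replicate 3 was the highest of its group at both loci (13.8 and 6.51 FPKM), and ONAC045 had 55 to 155 reads per library. How far the r of 0.84 or that of 0.61 rests on single libraries was not tested.

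Among the other tested Os loci, the pattern most like that of SNAC1 over the 12 libraries was that of Os08g0542700 (r = 0.99), with group means of 1.42 FPKM in WT water, 3.72 in WT salt, 1.03 in osmft1 water and 2.38 in osmft1 salt. Next came Os03g0761900 (r = 0.98). Nearest to NAC6/SNAC2 were Os01g0661601 and Os02g0509600 (both r = 0.99). The mean of Os01g0661601 was 0.476 FPKM in WT water, 6.23 in WT salt, 0.522 in osmft1 water and 7 in osmft1 salt. Nearest to NAC5 were Os04g0386500 (r = 0.98) and Os07g0416700 (r = 0.97). ONAC045 had less close neighbours, Os05g0350900 (r = 0.85) and Os02g0513100 (r = 0.81). The files give no names for these IDs. Each is the highest or next highest r among all other tested Os IDs, so these values are a description. Salt and water libraries did not overlap at 63.8% of all tested IDs in WT and 54.4% in osmft1. Shared regulation was not tested.

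**Figure D4:**
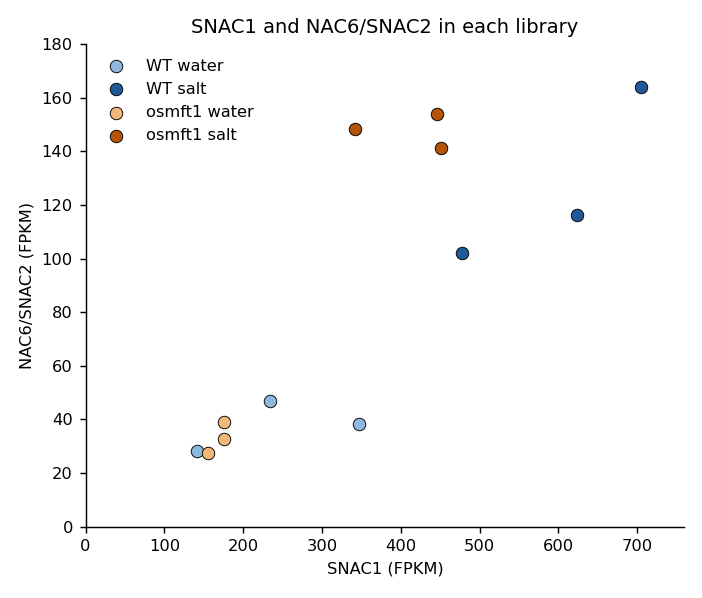
SNAC1 (horizontal axis, FPKM) against NAC6/SNAC2 (vertical axis, FPKM), with 1 point per library coloured by group. Water libraries lie at the lower left, and the osmft1 salt libraries lie above and to the left of the line of WT salt libraries, with 141 to 154 FPKM of NAC6/SNAC2 at 342 to 451 FPKM of SNAC1.

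The rises were set beside 24 other loci listed from published knowledge as members of the rice NAC family. The files held values for 21 of them, and 12 passed the filter and were tested. Over all tested IDs, the shares called higher and lower with salt were 27.7% and 28.2% in WT and 20.5% and 25.5% in osmft1. Among the 12 loci 4 rose, 7 fell and 1 was not called in WT, and 3 rose, 6 fell and 3 were not called in osmft1 with salt (limma). Their median log2 difference was -0.61 in WT and -0.21 in osmft1, against 0.04 and -0.11 over all tested IDs. Between osmft1 and WT 3 were called lower in water and 1 was called lower in salt, and 2 had a positive interaction, where 30.4%, 5.45% and 13.0% of all tested IDs were called in either direction. The call in salt was lost when any 1 of 8 libraries was left out, and with voom. The count in water was 1 without osmft1 water replicate 2, and that of the interaction was 1 when any 1 of 7 libraries was left out. With salt in osmft1 the number called was 5, not 9, without osmft1 water replicate 3 or osmft1 salt replicate 3. Since a locus could pass the filter through its higher group alone, these counts are a description. The highest mean among the 12 was 71.8 FPKM, in WT in water, which is below the 141 FPKM of the lowest SNAC1 library.

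The seed tissue was checked by 3 short lists of loci. Of 7 starchy endosperm loci 4 reached 1 FPKM in all libraries, and so did 3 of 4 amylase loci of germinating seed, while none of 4 green shoot loci did. The summed endosperm level ran from 28.4 to 36.1 FPKM in WT water, 35.4 to 52.9 in WT salt, 151 to 412 in osmft1 water and 79.7 to 131 in osmft1 salt. The summed amylase level ran from 4910 to 5271 FPKM in WT water, 2321 to 4740 in WT salt, 17560 to 19110 in osmft1 water and 6376 to 9404 in osmft1 salt. The summed green shoot level was 1.61 to 5.01 FPKM in WT water, 0.435 to 1.12 in osmft1 water and at most 0.27 FPKM in salt, where 1 of the 4 loci was at 0 in all WT libraries and 2 in all osmft1 libraries. The summed endosperm and amylase levels did not overlap between the genotypes in either treatment. The endosperm level overlapped between water and salt in WT and was lower in salt in osmft1, while the amylase and green shoot levels were lower in salt in both genotypes. The part of these lists in the NAC differences was not tested.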

How the data were processed

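Each library has its own deposited file of gene IDs and values. Bowtie2 2.2.3, HISAT2 2.1.0 and HTSeq 0.6.0 are listed in the submitters' processing notes, without their roles, as is the build IRGSP-1.0. Annotation, strand setting and normalization steps are not given in the sources. Reads of a gene and of an overlapping or antisense partner therefore cannot be separated. No header states the unit, and the deposited values were treated as FPKM. All 255815 values above 0 of tested IDs were whole reads within 0.003 reads once library totals and implied gene lengths were recovered from the steps between low values. Whether reads or fragments were counted is not stated.

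Groups follow the sample titles. IDs reaching 1 FPKM in 3 or more libraries were fitted on log2(FPKM + 1) with limma 3.58.1 in R 4.3.3, with 1 mean per group over the 12 libraries and a variance trend. P-values were adjusted by Benjamini-Hochberg over all 22017 tested IDs, for each comparison. A log2 difference on this scale understates changes of low IDs. Fit and recovery were tested on simulated data. Replicates differed by a chi-square per degree of freedom of 7.9 to 24.6, so none repeats another. All 5 loci are named in every comparison, and for each tested locus the 2 Os IDs with the highest Pearson r. The members and lists were chosen with earlier results of these data known. Of the member names, 3 stand in the gene table of assembly ASM3414082v1, on the same chromosomes, but it pairs none of the 5 IDs with a name. Plots and tables used pandas 2.3.3, numpy 2.4.6, scipy 1.17.1 and matplotlib 3.10.9 in Python 3.11.15.

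The alternatives were a pseudocount of 0.1, no filter (any ID above 0 in 1 library), a filter of 5 FPKM, median-ratio scaling, a correction for implied length in 20 bins per library, a replicate block, only the groups compared, no variance trend, each library left out, and both osmft1 libraries numbered 1 left out. Added after the data were examined was voom on the recovered reads.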

Additional observations from a re-analysis of the deposited data

How the results depend on the processing

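The calls of SNAC1, NAC6/SNAC2 and NAC5 with salt held in direction and significance in both genotypes under all 22 alternatives, with adjusted p-values up to 0.0114, 0.00138 and 0.00194 in WT and up to 0.0208, 0.000167 and 0.0227 in osmft1 (limma). Their log2 differences ran from 1.06 to 1.70, 1.53 to 1.89 and 0.75 to 0.91 in WT, and from 1.20 to 1.40, 2.02 to 2.30 and 0.46 to 0.65 in osmft1. The number of NAC loci called between the genotypes in water was 0 to 1 when libraries were left out in turn, the 1 being SNAC1 without WT water replicate 3, and 0 otherwise. Without a filter NAC10 was tested and not called in any comparison (adjusted p 0.543 to 0.969), and ONAC045 was not tested with the filter of 5 FPKM. Median-ratio scaling moved the median of the genotype differences in water, over all tested IDs, by -0.16, and 43.7% of its calls were higher in osmft1 against 65.8%. In salt the share was 57.6% against 79.5%. SNAC1 was then at -0.62 in water and -0.63 in salt, uncalled in both.

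Of the other NAC loci, 9 to 11 (salt in WT), 5 to 9 (salt in osmft1), 1 to 3 (genotypes in water), 0 to 1 (genotypes in salt) and 1 to 3 (interaction) were called when libraries were left out in turn. Without a filter the genotype counts were 5 in water, 0 in salt and 1 for the interaction, and with the filter of 5 FPKM, which left 7 to test, 7 were called with salt in WT. With the length trend removed the interaction count was 1. The count between genotypes in salt was 0 with only the groups compared, with no variance trend, with voom, and without both osmft1 libraries numbered 1, where the interaction count was also 0. The cause was not tested.

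Over all IDs, the genotype count ranged from 3067 to 7041 around 6703 in water and from 330 to 1336 around 1199 in salt. The interaction count ranged from 321 to 4216 around 2872. Same-numbered libraries did not deviate together in every pair (r from -0.19 to 0.24, over 0.1 in 4 of 18 pairs, and the best match bore the same number in 12 of 36 cases), so the numbers were not taken as pairs. Whether they mark a shared source is not given. With the replicate block the NAC loci called stayed at 3, 3, 0, 0 and 0, and the IDs called were 12350 and 10157 with salt, 6910 and 1145 between genotypes, and 3263 for the interaction. Depth limits NAC10 (2 to 13 reads per library). The spread of SNAC1 in WT water limits its genotype comparison.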

Other observations

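The balance between NAC6/SNAC2 and SNAC1 was looked at after their values had been seen. NAC6/SNAC2 held 0.313 to 0.434 of the FPKM of SNAC1 in the osmft1 salt libraries and 0.186 to 0.233 in the WT salt libraries, so these groups did not overlap. The mean log2 ratio differed by 0.78 between them. No test is given, since the ratio was chosen for this difference. In water the ratio was 0.177 to 0.222 in osmft1 and 0.11 to 0.201 in WT, and the means differed by 0.24 on the log2 scale. In salt the mean log2 ratio was 0.90 higher than in water in osmft1, without overlap, and was 0.35 higher in WT, with overlap. Neither locus alone was called between the genotypes.

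The summed FPKM of the 5 loci was 296 ± 105 in WT water, 755 ± 146 in WT salt, 219 ± 17.6 in osmft1 water and 585 ± 63.8 in osmft1 salt (SD, n = 3). SNAC1 made up most of each sum.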
